A study of Mus musculus with 5 samples.

Results

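The CXC chemokines Cxcl1, Cxcl2, Cxcl3, Cxcl5, Cxcl12, Cxcl14 and Cxcl16 and the chemokine receptor gene Cxcr2 were followed in whole mouse colon after an injection of an agonist of the interleukin (IL)-11 receptor. These 8 genes were taken by name, and every probe that the array holds for them was read, which gave 11 of 56605 probes. RNA of wild-type C57BL/B6 mice, 8 weeks old, was hybridised to 5 single-colour arrays. Control mice gave 2 of the arrays, and mice whose colon was taken 3 h after intravenous NT-3N, a modified human IL-11, gave the other 3. No vehicle injection is given for the control mice, so the agonist and the injection cannot be told apart. The labels and the methods of the study give different amounts of NT-3N, so no dose is stated here. All 8 epithelial, 10 fibroblast and 6 smooth muscle markers listed were well above background on all 5 arrays.

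Chemokines are small secreted proteins that draw leukocytes along a gradient. CXC chemokines that carry the ELR motif (Cxcl1, Cxcl2, Cxcl3 and Cxcl5) bind Cxcr2, a G protein-coupled receptor of neutrophils, and are known as early products of epithelial cells, fibroblasts and macrophages after an inflammatory signal. Cxcl12 binds Cxcr4 and holds leukocytes and progenitors in place, Cxcl14 is a homeostatic chemokine of epithelia and stroma, and Cxcl16 is made as a membrane protein that binds Cxcr6 on lymphocytes.

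Cxcl1, Cxcl2, Cxcl3 and Cxcl5 lie in a row of CXC ligand genes on mouse chromosome 5, in the order Cxcl5, Ppbp, Pf4, Cxcl3, Cxcl15, Cxcl1 and Cxcl2, and the promoters of Cxcl1, Cxcl2 and Cxcl3 share a match to the NF-kB motif. The RefSeq promoter table of GRCm38.p6 held 6 of the 8 genes; Cxcl5 and Cxcl16 were not matched. The 250 bases before the start site are shown for the 3 neighbours that share the match and for Cxcl12, which has none, because Cxcl1 was measured on these arrays and Cxcl2 and Cxcl3 were not. They lie on the plus strand at chr5:90890995-90891244, chr5:90903649-90903898, chr5:90785851-90786100 and chr6:117168285-117168534. Capitals mark exact matches to GGAATTTCC, bound by NF-kB, or to TATAAA, the letters of the TATA box, on either strand.
Cxcl1: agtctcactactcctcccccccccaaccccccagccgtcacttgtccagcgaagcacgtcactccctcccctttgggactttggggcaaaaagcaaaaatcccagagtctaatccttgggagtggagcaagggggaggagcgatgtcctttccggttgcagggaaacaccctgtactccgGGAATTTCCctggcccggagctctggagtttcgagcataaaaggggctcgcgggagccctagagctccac
Cxcl2: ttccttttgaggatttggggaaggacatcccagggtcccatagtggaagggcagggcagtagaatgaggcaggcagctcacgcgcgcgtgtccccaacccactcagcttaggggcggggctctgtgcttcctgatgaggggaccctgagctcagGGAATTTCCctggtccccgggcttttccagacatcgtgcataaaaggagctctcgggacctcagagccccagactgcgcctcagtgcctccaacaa
Cxcl3: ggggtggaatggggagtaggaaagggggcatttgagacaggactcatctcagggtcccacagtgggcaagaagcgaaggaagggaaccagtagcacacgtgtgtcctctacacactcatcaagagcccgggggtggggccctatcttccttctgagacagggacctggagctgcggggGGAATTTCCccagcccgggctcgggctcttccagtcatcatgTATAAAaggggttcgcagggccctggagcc
Cxcl12: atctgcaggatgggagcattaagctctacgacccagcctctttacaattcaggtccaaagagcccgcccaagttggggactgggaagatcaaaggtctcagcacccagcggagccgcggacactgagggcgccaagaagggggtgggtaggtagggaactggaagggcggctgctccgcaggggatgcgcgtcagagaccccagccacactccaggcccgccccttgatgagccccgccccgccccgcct

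The motif GGAATTTCC began 70 bases before the start of Cxcl1, 96 before that of Cxcl2 and 72 before that of Cxcl3. It was present in 0.286% of 32851 promoter windows of this length. TATAAA, the letters of the TATA box, was found in Cxcl3 alone of the 6, beginning 30 bases before its start, and in 12.4% of all windows. The windows of Cxcl1 and Cxcl2 hold cataaa, which is not an exact match and was not marked. TTCNNNGAA, the core letters bound by STAT factors, was found only in Cxcl14 among the 6, beginning 191 bases before its start (7.02% of all windows), and TGANTCA, the AP-1 core, in none of the 6 (6.75% of all windows). These motifs were chosen after the sequences had been seen, and they do not overlap each other in these windows. Aligned end to end, the windows of Cxcl2 and Cxcl3 were 58.7% identical, and every other pair of the 6 lay between 45.3% and 52.7%.

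Of the 8 genes, Cxcl1 and Cxcl5 had higher signal on every NT-3N array than on either control array. Cxcl16 did so by a smaller margin, Cxcl12 and Cxcl14 overlapped between the groups at their brightest probe, and Cxcl2, Cxcl3 and Cxcr2 were not well above background on any array. None of them passed an adjusted p of 0.05 in limma. Values are log2 signals after quantile normalization, and a log2 difference of 1 is a 2-fold change. They are compared within a probe only, since the brightness of different probes is not on one scale. In whole tissue, more cells of a type and more RNA per cell cannot be told apart.

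**Figure D1:**
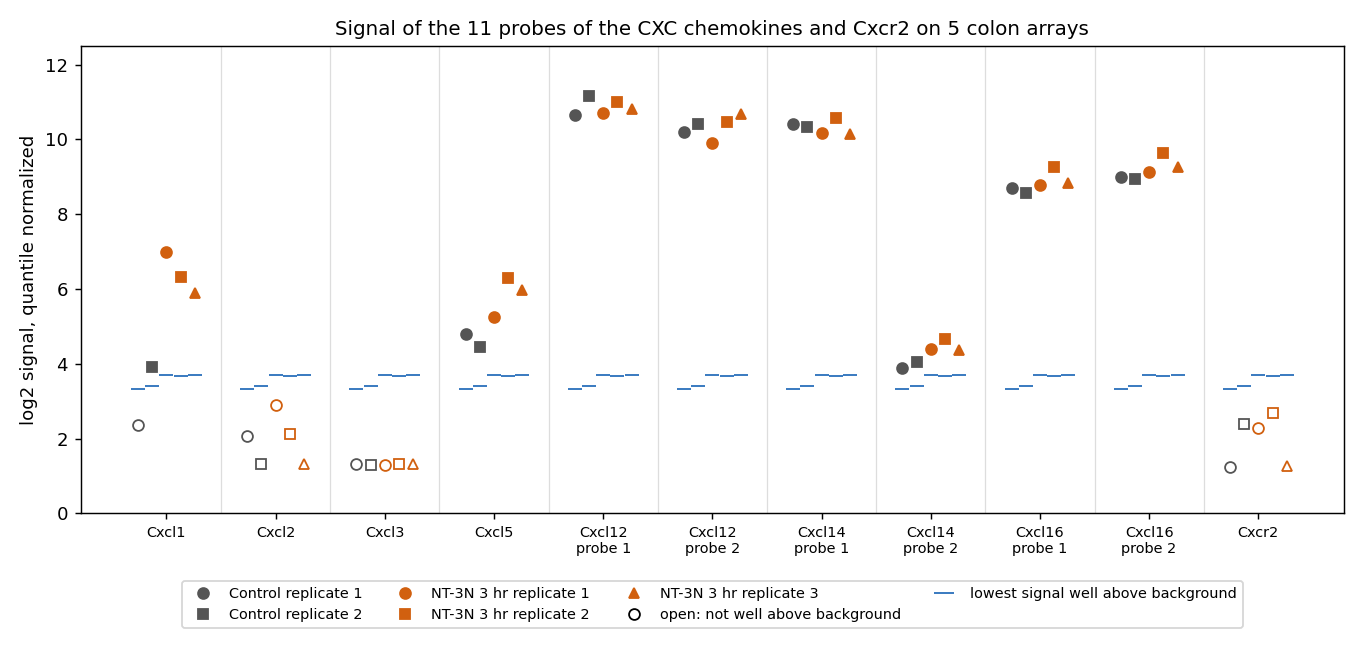
Quantile-normalized log2 signal (y axis) of the 11 probes (x axis) on each of the 5 arrays. Open points were not well above background, and the blue dashes are the lowest signal well above background on each array; the NT-3N points of Cxcl1 sit between 5.90 and 7.00, above controls at 2.37 and 3.91, while Cxcl2, Cxcl3 and Cxcr2 stay below the dashes.

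Cxcl1, also called KC, is the main early ELR chemokine of the mouse. Its log2 signal was 2.37 and 3.91 in Control replicates 1 and 2, and 7.00, 6.31 and 5.90 in NT-3N replicates 1, 2 and 3. All NT-3N arrays lay above both controls, and the value of Control replicate 1 was not well above background. Before scaling between arrays, the processed signal was 5.26 and 15.5 in Control and 114, 89.6 and 61.2 in NT-3N, on arrays whose median spot read between 92.3 and 115.8.

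For Cxcl1 the control mean was 3.14 ± 1.09 (SD, n = 2) and the NT-3N mean 6.40 ± 0.55 (SD, n = 3). The log2 fold change of 3.26 had an SE of 0.52 and a 95% interval from 2.00 to 4.53, and equals 9.59-fold (3.99 to 23.1). Limma gave an unadjusted p of 0.000638 and 0.126 after adjustment, so the gene did not pass over all features.

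The size of the Cxcl1 difference depends on the dim control. With that spot set to the lowest signal well above background on its array, 3.33, the log2 fold change was 2.79 (6.90-fold; limma adjusted p = 0.087). Without Control replicate 1 it was 2.51 (limma adjusted p = 0.26), and without Control replicate 2, which leaves only the dim control, 4.05 (limma adjusted p = 0.048). The normexp correction, which adds an offset and here started from the median signal of each spot in place of the processed signal, gave 1.00 (limma adjusted p = 0.13). The unadjusted p of Cxcl1 was between 0.000169 and 0.00495 in all 18 alternatives that gave it a value. Cxcl1 entered the test through its NT-3N arrays, since the filter asked for a signal well above background on 2 arrays of any group.

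Cxcl5, another ligand of Cxcr2, was well above background on all 5 arrays. Its log2 signal was 4.79 and 4.45 in Control and 5.25, 6.31 and 5.97 in NT-3N. The lowest NT-3N array, replicate 1, still lay above both controls. This array had the highest Cxcl1 of the 5, so the NT-3N mice stood in a different order for the 2 chemokines.

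The means of Cxcl5 were 4.62 ± 0.25 (SD, n = 2) and 5.84 ± 0.54 (SD, n = 3). The log2 fold change was 1.22 (95% interval 0.39 to 2.05), or 2.33-fold, for which limma gave an unadjusted p of 0.0112 and an adjusted p of 0.36. It lay between 0.98 and 1.52 when each array was left out, was 0.47 with normexp, and its unadjusted p passed 0.05 in 18 of 20 alternatives, missing it without Control replicate 2 (limma, 0.061) and with the replicate block (0.054).

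The summed signal of the fibroblast markers was 77600 and 70700 in Control and 65093, 96059 and 84195 in NT-3N. That of the macrophage markers was 10015 and 9369 in Control and 8213, 11537 and 10939 in NT-3N. Both sums were lowest in NT-3N replicate 1 and highest in replicate 2, the order that Cxcl5 and Cxcl16 had among the NT-3N arrays. The smooth muscle and endothelial sums had this order too, the endothelial one at 1318, 1556 and 1371 in NT-3N. The order was thus not particular to fibroblast and macrophage markers. The epithelial, neutrophil, B cell and adipocyte sums did not have it. The fibroblast and macrophage sums overlapped between the groups. Taken singly, 2 of 10 fibroblast and 1 of 6 macrophage markers were higher at an unadjusted p under 0.05. In both lists 0 were lower and limma called 0. The higher ones were Pdpn at 1.49, Dcn at 0.32 and Mrc1 at 0.53 (limma adjusted p = 0.067, 0.50 and 0.32). The summed signal of the 6 smooth muscle markers did not overlap, at 445674 and 460166 in Control and 326964, 416455 and 387920 in NT-3N, and was lowest in NT-3N replicate 1. All 6 smooth muscle markers had a log2 fold change below 0 (median -0.28), with 2 lower at an unadjusted p under 0.05 and 0 called by limma. That unadjusted threshold was passed by 9.62% of all features in either direction. The part of these cell types in the values was not tested.

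Cxcl2, also known as MIP-2, and Cxcl3 are the closest relatives of Cxcl1. The log2 signal of Cxcl2 was 2.06 and 1.33 in Control and 2.90, 2.11 and 1.32 in NT-3N. That of Cxcl3 stayed between 1.29 and 1.33 on the 5 arrays. The lowest signal well above background lay between 3.33 and 3.70, so neither gene was measured and no fold is given for either.

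Among the other genes of the same stretch of chromosome 5, Pf4, a platelet chemokine, was well above background on all 5 arrays, with a log2 fold change of 0.26 (95% interval -0.42 to 0.93; limma adjusted p = 0.80). Ppbp, another platelet chemokine, and Cxcl15, known from lung, were not well above background on any array. Of the 7 neighbours, 3 were thus tested, and the 2 with groups that did not overlap were Cxcl5 and Cxcl1, where 13.5% of all features were higher without overlap.

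**Figure D2:**
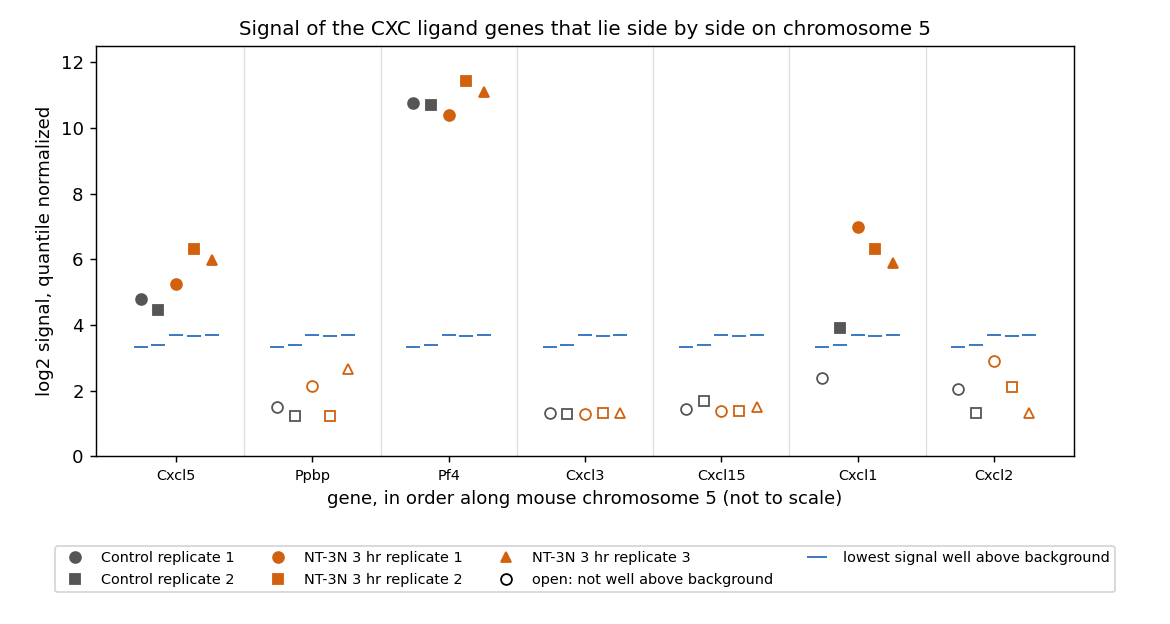
Quantile-normalized log2 signal (y axis) of the 7 CXC ligand genes of chromosome 5 in their order along it (x axis, not to scale), on each of the 5 arrays. Open points were not well above background, and dashes mark the lowest signal well above background; Cxcl5 and Cxcl1 have all NT-3N points above both controls, with unmeasured genes between and beside them.

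Cxcl16, the ligand of Cxcr6, had 2 probes. The brighter read 8.99 and 8.95 in Control and 9.12, 9.64 and 9.28 in NT-3N. The other read 8.69 and 8.57 in Control and 8.79, 9.26 and 8.84 in NT-3N. At both probes all NT-3N arrays lay above both controls, with replicate 2 the highest, and the gap between the groups was smaller than the range of the NT-3N arrays.

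The log2 fold change of Cxcl16 was 0.38 (95% interval -0.03 to 0.79) at the brighter probe, from 8.97 ± 0.026 (SD, n = 2) to 9.35 ± 0.27 (SD, n = 3), and its adjusted p was 0.54 (limma). Where every probe was tested it was 0.33 at the other probe (adjusted p = 0.60). It was above 0 in all 20 alternatives, between 0.23 and 0.50.

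Cxcl12, also called SDF-1, was read by a probe named for transcript NM_001012477 and by another named for NM_021704. The first gave 10.64 and 11.15 in Control and 10.70, 11.01 and 10.81 in NT-3N. The second gave 10.20 and 10.42 in Control and 9.90, 10.46 and 10.67 in NT-3N. The NT-3N values straddled the controls at the second probe and fell between them at the first.

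The log2 fold change of Cxcl12 was -0.05 (95% interval -0.48 to 0.37; limma adjusted p = 0.94) at the first probe. It was 0.03 (-0.52 to 0.58) at the second where every probe was tested (limma adjusted p = 0.98). Both intervals leave room for a change below 2-fold in either direction. Whether each probe reads its named transcript alone is not known from the files.

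Cxcl14, also called BRAK, had a bright and a dim probe that differed. The bright probe gave 10.40 and 10.34 in Control and 10.16, 10.57 and 10.14 in NT-3N, with a log2 fold change of -0.08 (95% interval -0.45 to 0.29; limma adjusted p = 0.89). The dim one, named for the predicted transcript XM_006517307, gave 3.88 and 4.06 in Control and 4.41, 4.67 and 4.38 in NT-3N. Its groups did not overlap, and its log2 fold change was 0.52 (95% interval -0.14 to 1.17; limma adjusted p = 0.61). With the mean of the probes the gene moved to 0.22, so the sign of the Cxcl14 estimate depends on the probe. Both intervals hold 0, so neither probe settles a direction. The dim probe's controls lay near the lowest signal well above background on their arrays, 3.33 and 3.40.

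**Figure D3:**
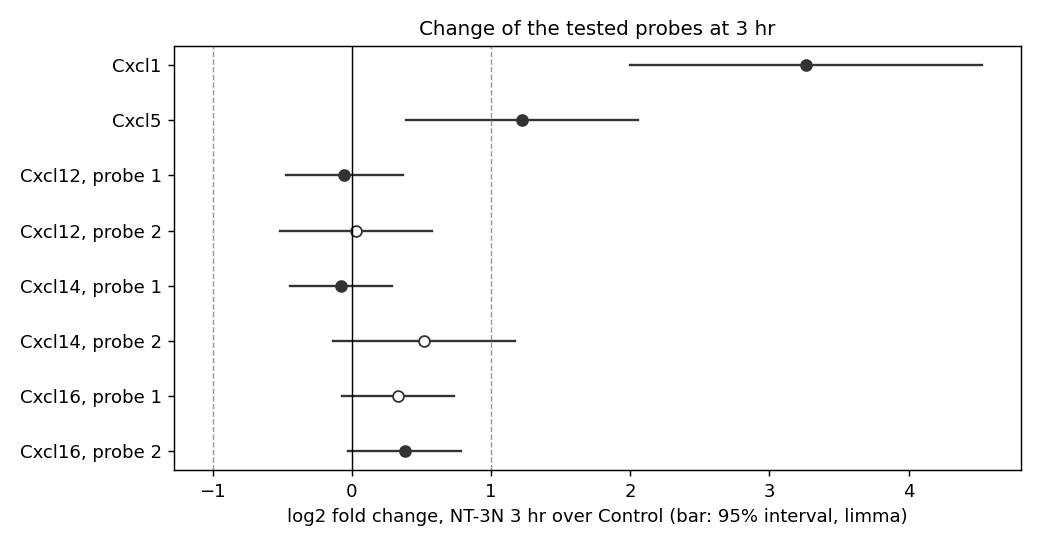
Log2 fold change of NT-3N over Control (x axis) for the 8 probes that were tested (y axis), with 95% intervals from limma as bars. Filled points are the brightest probe of a gene and open points are further probes where every probe was tested; dashed lines mark a 2-fold change, and the interval of Cxcl1, 2.00 to 4.53, and that of Cxcl5, 0.39 to 2.05, lie above 0.

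Cxcr2 itself was not well above background on any array, with log2 signals of 1.24 and 2.40 in Control and 2.28, 2.69 and 1.26 in NT-3N. Cxcr1, the other receptor for ELR chemokines, was not either. Of 12 neutrophil markers, 4 were well above background on all 5 arrays (Csf3r, Camp, Mpo and Elane). The alarmins S100a8 and S100a9 were well above background on all NT-3N arrays and on neither control array: S100a9 read 1.56 and 1.58 in Control against 8.58, 6.23 and 6.65 in NT-3N. The log2 fold change was 5.59 for S100a9 and 2.67 for S100a8 (limma adjusted p = 0.062 and 0.22). Both start from controls not well above background, so their size is uncertain. Mpo, the peroxidase of neutrophil granules, lay lower on every NT-3N array, at 5.39 and 5.29 in Control and 4.60, 4.95 and 4.74 in NT-3N (log2 fold change -0.57; limma adjusted p = 0.50). Csf3r had -0.16 and Elane -0.18 (limma adjusted p = 0.63 and 0.77). Beside the alarmins, the markers above 0 were Ltf at 0.99, Mmp9 at 0.96, Mmp8 at 0.50 and Camp at 0.19. Their limma adjusted p was 0.58, 0.48, 0.79 and 0.74, and only Mmp8 overlapped between the groups. Of the 9 neutrophil markers tested, 6 had a log2 fold change above 0 and 3 below, with 3 higher and 1 lower at an unadjusted p under 0.05 and 0 called by limma. The 3 higher were S100a8, S100a9 and Mmp9. None of them was well above background on a control array, so they entered the test through NT-3N arrays. By limma, 9.62% of all features had an unadjusted p under 0.05 in either direction.

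Both alarmins were highest in NT-3N replicate 1, the array with the highest Cxcl1. The summed signal of the 9 tested neutrophil markers overlapped between the groups, at 77602 to 78710 in Control and 64602 to 78146 in NT-3N, and was mostly Csf3r. Without Csf3r the sum was 710 and 621 in Control and 1165, 659 and 735 in NT-3N, which also overlapped. Neither Ngp nor Retnlg was well above background on a control array, and Retnlg was so on 1 NT-3N array. The part of neutrophils in the Cxcl1 values was not tested.

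By limma 0 of the 5 tested genes had an adjusted p under 0.05, where 0.143% of all 32917 features did, and the local-pooled-error test that the study names gave 1, Cxcl1 (adjusted p = 0.028), where it called 1.06% of all features. At an unadjusted p under 0.05 there were 2 of 5 (Cxcl1 and Cxcl5) by either test, against 9.62% of all features by limma and 3.82% by the local-pooled-error test. These 2 were also at least 2-fold higher in limma, as were 0.793% of all features. Between the groups 3 of 5 did not overlap and were higher (Cxcl1, Cxcl5 and Cxcl16), as were 13.5% of all features. The 3 genes below background are not part of these counts. The genes were chosen with earlier results of these data known, and Cxcl1 passed the filter through its NT-3N arrays. These counts are therefore a description only. With 2 arrays against 3, an exact two-sided permutation test of 1 gene cannot go below p = 0.1, the value reached by Cxcl1.

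**Figure D4:**
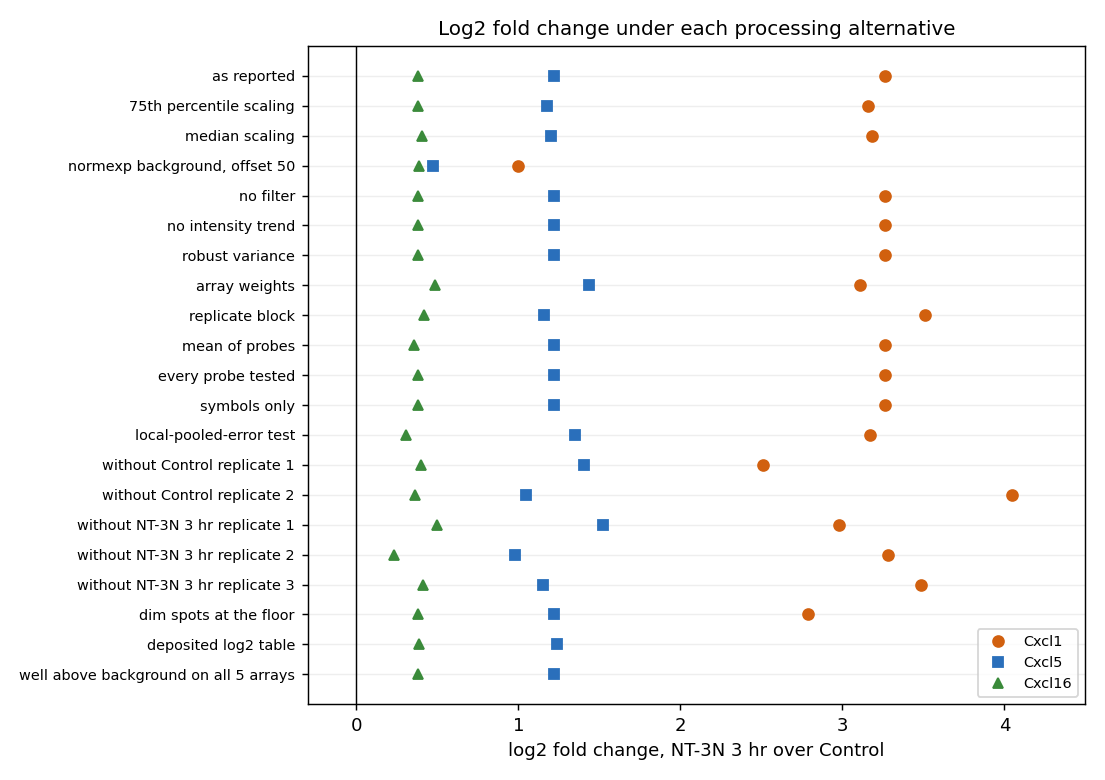
Log2 fold change of NT-3N over Control (x axis) for Cxcl1, Cxcl5 and Cxcl16 as reported and under each processing alternative (y axis). Every value lies above 0; Cxcl1 has no value in the deposited log2 table or with the filter that asks for all 5 arrays, and normexp brings it down to 1.00.

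Of the other CXC ligands on a list of 8, 4 were tested and limma called 0, with 0 at an unadjusted p under 0.05. Their median log2 fold change was 0.30, against -0.02 over all features. The largest differences were those of Cxcl10, a ligand of Cxcr3 induced by interferon, at 0.53 (95% interval -0.60 to 1.66), and of Cxcl13, which attracts B cells to follicles, at 0.35 (-0.29 to 1.00). Cxcl10 read 7.54 and 8.49 in Control and 9.37, 7.89 and 8.38 in NT-3N, so the groups overlapped.

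Of 8 other CXC and atypical chemokine receptors, 7 were tested and 1 was called higher, Ackr1, with a median log2 fold change of 0.36 for the 7 and 1 higher and 1 lower at an unadjusted p under 0.05. Ackr1 is a receptor of venules and red cells that binds Cxcl1 and Cxcl5 among others without signalling through G proteins. It read 8.14 and 8.30 in Control and 9.59, 9.32 and 9.44 in NT-3N, a rise of 1.23 on the log2 scale with a standard error of 0.13 (limma adjusted p = 0.043). Its further probe gave 1.02 (limma adjusted p = 0.072 where every probe was tested). The call held in 11 of 20 alternatives, with an adjusted p from 0.017 to 0.50, and was lost without any array but NT-3N replicate 1, without a filter, without the intensity trend, with the replicate block (0.50), with the mean of its probes and under the local-pooled-error test (0.21).

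Cxcr5, the receptor of Cxcl13 on B cells, had a log2 fold change of 1.21 (95% interval -0.69 to 3.11). It read 8.08 and 5.09 in Control and 7.79, 7.54 and 8.05 in NT-3N, so Control replicate 2 alone was low. The summed signal of B cell markers was also low on that array, at 1057 against 4546 in Control replicate 1 and 4300 to 5109 in NT-3N. Cxcr4, the receptor of Cxcl12, had 0.60 (-0.22 to 1.43) and Cxcr6, that of Cxcl16, -0.27 (-0.61 to 0.07), and neither passed in limma (adjusted p = 0.63 and 0.60). These values are from the brightest probe, where the groups overlapped for Cxcr4 and the NT-3N arrays lay below both controls for Cxcr6. The further probe of each differed: that of Cxcr4 lay between 4.65 and 5.46 in NT-3N, above both controls (95% interval of the log2 fold change 0.35 to 1.84; limma adjusted p = 0.36), and that of Cxcr6 overlapped (-0.14; limma adjusted p = 0.80). Ackr4, an atypical receptor of CC chemokines, read 8.12 and 8.36 in Control and 7.24, 7.80 and 7.81 in NT-3N, lower on every NT-3N array, with a log2 fold change of -0.63 (95% interval -1.13 to -0.12; limma adjusted p = 0.44).

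Limma called 0 of the 16 genes of a list for signalling and desensitisation downstream of Cxcr2, with 3 higher and 1 lower at an unadjusted p under 0.05 and a median log2 fold change of 0.06. Over all features 9.62% had an unadjusted p under 0.05 in either direction. The largest differences were those of Fgr, a Src family kinase of myeloid cells, at 0.63 (95% interval 0.24 to 1.01; limma adjusted p = 0.31), and of Pik3cg, the PI3K catalytic subunit downstream of G proteins, at 0.39 (-0.04 to 0.83; limma adjusted p = 0.56). A further probe of Fgr gave -0.12, with overlapping groups (limma adjusted p = 0.84 where every probe was tested). Limma also called 0 of 14 tested genes from a list of NF-kB and IL-17 responsive regulators. At an unadjusted p under 0.05, 3 were higher and 0 lower, and the median of the 14 was 0.15. Among these 3 was Il6, well above background on 2 NT-3N arrays and on neither control array, so it entered the test through NT-3N. In an endothelial adhesion list limma called 0 of 5 tested genes (2 higher and 0 lower, median 1.04). The median is that of Glycam1, whose groups overlapped (95% interval -0.70 to 2.78). Selp had 1.75 (95% interval 0.54 to 2.95), Icam1 1.08 (0.59 to 1.56), Vcam1 0.21 and Icam2 0.19. The limma adjusted p was 0.36 for Selp and 0.18 for Icam1. Where every probe was tested, a further probe of Selp gave 1.37 (-0.10 to 2.84) with overlapping groups. Another gave 1.00 (-0.10 to 2.10) without overlap. Of 6 genes for proteases that cut CXC ligands limma called 0 (1 higher and 0 lower, median 0.33). The 1 higher was Mmp9, also counted among the neutrophil markers and not well above background on a control array.

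The features most like Cxcl5 over the 5 arrays, by the root mean square difference of mean-centred log2 signals among 17941 features with a symbol, were Rasl12 (0.068), D630010B17Rik (0.12) and Gm3448 (0.15). For Cxcl16 they were Ear2 (0.040), Prkch (0.040) and Evi2a (0.042). With 5 arrays such a likeness is a description only.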

How the data were processed

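Whole-colon RNA of 5 mice was hybridised to Agilent SurePrint G3 mouse arrays, 2 of Control and 3 of NT-3N, all on 1 slide with 1 scan time. The authors extracted the spots with Agilent Feature Extraction 11.0.1.1, per the submitters' processing notes, and deposited for each spot a background-subtracted intensity that was not scaled between arrays. The deposited table of log2 values, quantile normalized by the authors, was used as an alternative only; it holds no probe of Cxcl1, Cxcl2, Cxcl3 or Cxcr2.

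Control and outlier spots were left out, log2 intensities were quantile-normalized, and probes well above background on at least 2 of 5 arrays were kept. Probe accessions without version were matched to RefSeq symbols (GRCm38.p6), which named 32994 of 56605 probes; the array design names another build. The brightest probe stood for a gene. The 32917 features were fitted with limma 3.58.1 in R 4.3.3 (intensity trend, two-sided, Benjamini-Hochberg over all features). The study names a local-pooled-error test, rewritten here from its description as an alternative. Both tests were first tested on simulated data, where most calls of the local-pooled-error test were false and few of those of limma were. The simulated spread was drawn from the variance model that limma itself fits, which favours limma. That simulation therefore cannot rank the 2 tests on these data. The number of arrays limits the precision, and the series states 2 to 3 mice a group.

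The 8 genes and the lists were chosen with earlier results of these data known. All 8 are described; of the context lists, genes past adjusted p 0.05 are named and, for CXC ligands, receptors and signalling, also the 2 with the largest change among those above background on all arrays. Cxcr4, Cxcr6, Ackr4 and the neighbours on chromosome 5 were named after their values were seen. So were the single genes of the neutrophil, fibroblast, macrophage, adhesion, protease and NF-kB lists, S100a8, S100a9 and Mpo among them. Promoters were aligned with Biopython 1.88 (match 1, mismatch -1, gap opening -2, extension -0.5). Alternatives covered scaling, background (normexp on median signals), the deposited table, the filter, the variance model, array weights, the replicate block, each array left out, several probes, named features only, the test and dim spots set to the floor.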

Additional observations from a re-analysis of the deposited data

How the results depend on the processing

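Dim spots at the floor were added as an alternative after seeing the data. As reported, 0 of the 5 tested genes passed an adjusted p of 0.05. That number was 1 (Cxcl1) with the local-pooled-error test, lay between 0 and 1 when each array was left out, the 1 coming without Control replicate 2, and was 0 in the other alternatives. The 2 genes past an unadjusted p of 0.05 and 2-fold became 0 under normexp. They became 1 with the deposited log2 table or a signal above background on all 5 arrays (Cxcl5, since neither holds Cxcl1). Leaving out each array gave between 1 and 2, with Cxcl1 alone when Control replicate 2 or NT-3N replicate 2 was dropped. Replicate numbers were not taken as pairs. Correlations of same-numbered deviations were 0.13 for number 1 and 0.036 for number 2. The deviations of 2 controls from their mean mirror each other, so these correlations cannot settle whether the arrays were paired. With the replicate block 1 gene, Cxcl1, passed the unadjusted threshold with 2-fold, and 0 passed the adjusted one. Cxcl1, Cxcl5 and Cxcl16 stayed above 0 in every alternative that gave a value; for arrays left out this follows from the lack of overlap. Cxcl12 turned to 0.0077 with array weights, 0.20 when Control replicate 2 was dropped and 0.015 when NT-3N replicate 1 was, over -0.31 to 0.20 for each array left out. Cxcl14 turned to 0.00077 with array weights and 0.22 with the mean of probes. None of these passed, and the cause was not tested. Signal over background limits Cxcl1, whose spot was not well above background on 1 control array.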
